A study of Mus musculus with 12 samples.

Results

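The C10 line was compared after 3 h of beta estradiol and after ethanol, the vehicle, to describe the first measured hours of the response to C/EBPa. C10 carries C/EBPa in an inducible form, per the labels, which describe the series as the conversion of a B cell line into macrophages. All arrays titled with those conditions were used, which gave 4 of the 12 arrays of the series, 2 treated with beta estradiol for 3 h and 2 treated with ethanol. The other 8 arrays held C10 after 12, 24 and 48 h of beta estradiol and the HAFTL line treated with beta estradiol, 2 arrays each. HAFTL is described in the labels as a line from fetal liver transformed by the Ha-ras oncogene, and the series' design names it as the control. The transgene's promoter, the length of the ethanol treatment and whether C10 is a single clone were not given in the sources used here. The labels do not say that duplicates came from separate cultures, so the p-values cover the variation among these arrays alone, which may be technical.

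C/EBPa is a transcription factor of the basic leucine zipper (bZIP) family that is needed for granulocyte and macrophage development. It binds DNA as a dimer, with itself or with other bZIP proteins, and it is known both for turning on myeloid genes and for slowing the cell cycle. Inducible forms are commonly made by fusing a factor to the hormone-binding part of the oestrogen receptor, which keeps the protein out of the nucleus until the hormone is added. RNA levels after a few hours then hold the first genes to respond, together with changes that follow from them.

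Each value is the signal of 1 probe set on 1-colour Affymetrix arrays, in arbitrary units, after quantile normalisation over all arrays and with a floor of 16. A gene was represented by its brightest probe set, and 11696 genes exceeded a signal of 74.6 in at least 2 of the 12 arrays and were tested with limma. Signals compare 1 gene between arrays and not 1 gene with another. Members of a list that rose or fell are named only where the groups do not overlap, so that separation belongs to the choice and supports nothing. "Rose" and "fell" are used only where the Benjamini-Hochberg adjusted p was below 0.05, changes are log2 of 3 h over vehicle with their standard error, and each group has n = 2. Where both arrays of the dimmer group lay under 74.6, the change is given as a bound, which sets the brighter group's mean against that level or against the dim signal itself, whichever was higher.

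The endogenous Cebpa probe set was at the floor in 1 of 2 arrays at 3 h and in both vehicle arrays, with a highest signal of 34.6, so it did not report the inducible protein. Esr1, the oestrogen receptor gene, read 277 and 176 at 3 h, against 207 and 210 with vehicle, and 26.3 and 38.2 in HAFTL. Its C10 groups overlapped, and whether part of its sequence belongs to the construct was not tested. Surrogate light chain and B cell receptor genes, which mark the B lineage, were present in all 4 arrays: Igll1 read 11571 and 11587 at 3 h, against 24530 and 25512 with vehicle. In lists of markers of other cells, the 6 tested erythroid and megakaryocyte genes and the 3 tested mast cell genes did not pass in limma. The summed signal of the 6 tested T and NK cell markers, of 15 on the array, was 1094 and 1455 at 3 h. It was 2863 and 2946 with vehicle, and 2 of the 6 fell. Among these was Cd5, which is also found on B cells, with 417 and 468 at 3 h, against 2276 and 2216 with vehicle. The 4 tested dendritic cell markers, of 10 on the array, summed to 932.9 and 878 at 3 h, against 1587 and 1628 with vehicle, with 2 falls. The 7 tested stromal and endothelial markers, of 15 on the array, summed to 1269 and 1277 at 3 h. They summed to 721.7 and 1011 with vehicle, with 2 rises and 1 fall. Their part in the results below was not tested. In such bulk samples, fewer cells of a type and less RNA per cell cannot be told apart.

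At 3 h, 2450 genes were higher than with vehicle (20.9% of those tested) and 3196 were lower (27.3%), with a median change of -0.06 over all genes. Both arrays at 3 h lay above both vehicle arrays in 33.7% of genes and below both in 40.7%. A 2-fold change was passed by 827 genes upwards (7.07%) and 1334 downwards (11.4%). Against HAFTL, which shares the 3 h arrays with the comparison above, 2605 genes were higher (22.3%) and 3248 were lower (27.8%). The split of the calls rests on how the arrays are scaled: with the poly-A spike-in controls as the scale, the median of all genes was 0.61 and 83.6% of the calls were rises, against 43.4% with quantile normalisation. The spike-ins averaged 8.09 and 7.77 at 3 h, against 8.86 and 8.48 with vehicle (log2), and the labels do not say how they were added. All directions below are relative to the other genes of the same array. On that scale the list medians that were below 0 stayed so for B lineage transcription factors (-0.82), dendritic cell markers (-0.71), B lineage surface antigens (-0.51), pre-B cell receptor genes (-0.30), bZIP factors (-0.27), the interferon response (-0.22), MHC class II genes and E protein inhibitors (both -0.04). The other list medians that were below 0 turned positive, and 36 of the genes named lost their call without changing direction.

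Gene groups separated widely around those shares. Of 42 tested DNA replication and G1/S genes, 40 rose and 1 fell, with a median change of 1.47, and of 36 mitosis and cytokinesis genes, 34 rose and the other 2 did not pass, with a median of 1.65. In sterol synthesis and uptake, 17 of 22 genes rose and the other 5 did not pass, with a median of 1.02. At the other end, B lineage transcription factors had 3 rises and 16 falls among 21 genes and a median of -1.54 (-1.42 with bounds in place of fitted values), and B lineage surface antigens 2 rises and 9 falls among 14 and a median of -1.25 (-1.18 with bounds, and -0.71 over all 19 on the array without the filter). Genes of the pre-B cell receptor and its signalling had 1 rise and 21 falls among 24, with a median of -1.10. The share of rises in the replication and mitosis lists was far above the 20.9% of all genes, and the share of falls in the B lineage lists above 27.3%. With spike-in scaling, 9 of 21 B lineage transcription factors, 5 of 14 surface antigens and 6 of 24 pre-B cell receptor genes fell. On that scale 417 of 11986 genes fell.

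**Figure D1:**
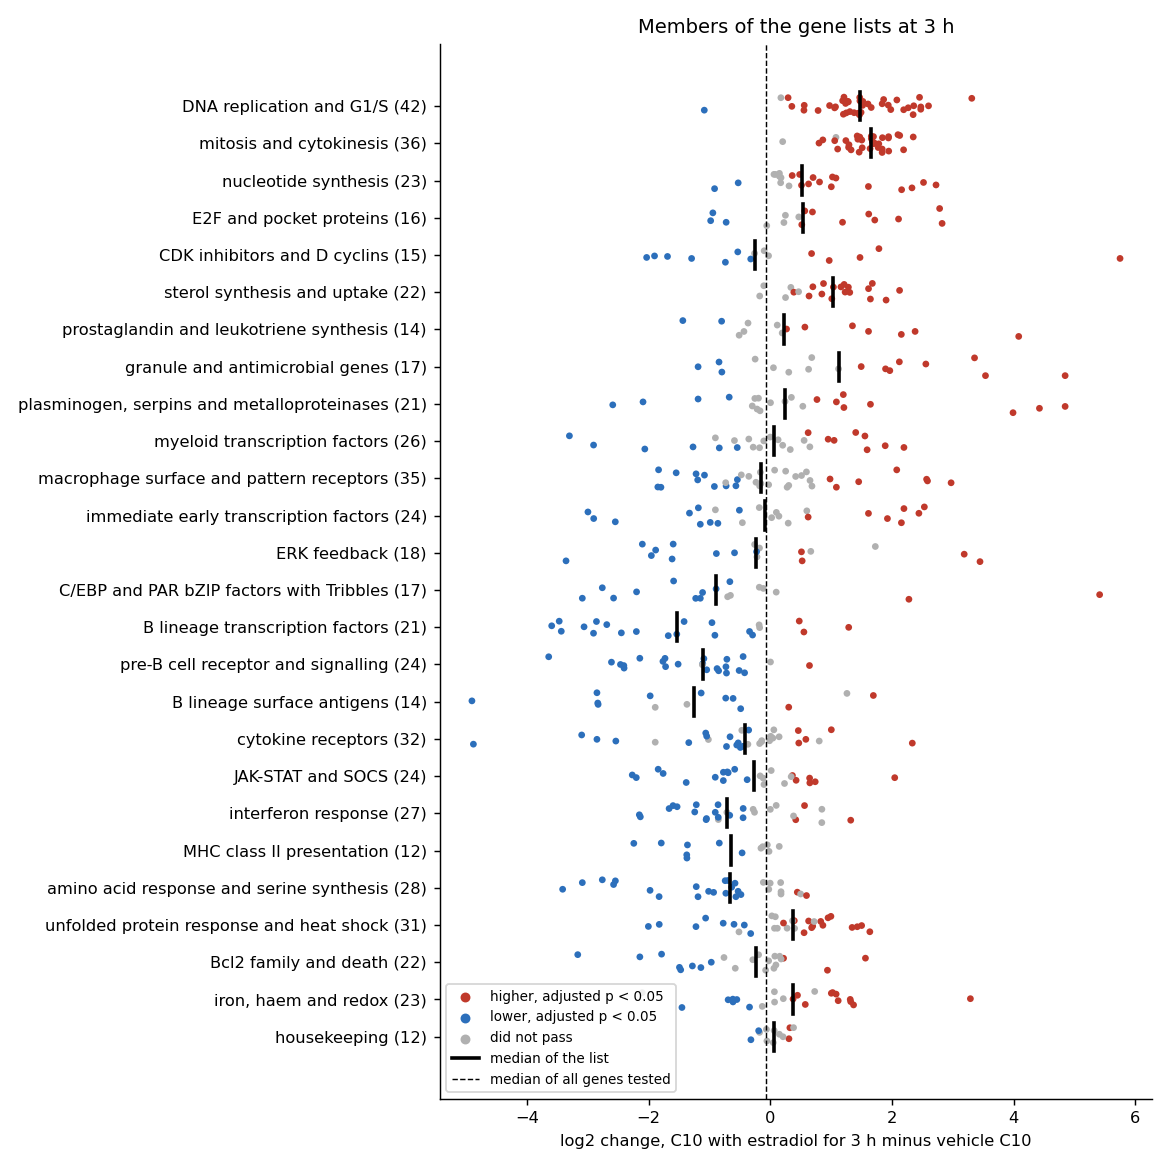
Log2 change of each tested gene of a list, C10 at 3 h of beta estradiol minus vehicle C10, 1 point a gene, coloured by its call in limma, with the number of genes tested beside the list's name. Black bars mark list medians, such as 1.65 for mitosis and -1.54 for B lineage transcription factors, and the dashed line marks the median of all genes tested, -0.06.

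C/EBPa works beside other bZIP proteins, and 17 of these genes and their Tribbles regulators were tested, of which 2 rose and 10 fell (median -0.89). With spike-in scaling 2 rose and 4 fell. Nfil3, a repressor that shares target sites with the PAR bZIP factors, read 666 and 700 at 3 h, against 16 and 16 with vehicle. It was at least 9.15-fold higher, with an adjusted p of 0.00011, and it read 1666 on average at 24 h. Trib1, whose protein steers C/EBPa to degradation, read 1748 and 1822 at 3 h, against 367 and 369 with vehicle, a log2 change of 2.28 ± 0.12. The 3 h arrays were the brighter pair in these genes. Trib3, a stress-induced relative of Trib1, read 463 and 533 at 3 h, against 4163 and 4316 with vehicle, and changed by -3.09 ± 0.09. Ddit3, a C/EBP-like factor of the stress response that blocks C/EBP dimers, read 1152 and 1023 at 3 h, against 7402 and 7336 with vehicle, a change of -2.76 ± 0.09. Atf5 and the clock output factor Dbp fell by 2.58 and 2.20 on the log2 scale. In these falls the vehicle arrays were the brighter pair. Against HAFTL, 3 of the 17 genes were higher and 11 lower, with Nfil3 at 4.43 and Trib3 at -2.70.

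Of 25 tested genes reported elsewhere as C/EBPa targets, 9 rose and 5 fell, with a median of 0.48, or 0.30 over all 31 on the array without the filter. The granule genes Csf3r, Ctsg, Elane, Ltf, Pglyrp1 and S100a9 did not exceed the detection level in 2 arrays and were not tested. Hp, haptoglobin, read 299 and 158 at 3 h, against 28 and 16 with vehicle, and was at least 2.91-fold higher. Mgst1, a microsomal glutathione transferase, read 188 and 178 at 3 h, against 16.1 and 21.7 with vehicle, and was at least 2.45-fold higher, while HAFTL read 126 and 129. Gfi1, which encodes a transcriptional repressor needed for granulocyte development, read 1023 and 1072 at 3 h, against 318 and 251 with vehicle, a change of 1.89 ± 0.15. Spi1, which encodes PU.1, the partner factor of the myeloid lineage, rose by 0.95 ± 0.09. The falls included 3 regulators. Irf8, a factor shared by B cells and macrophages, read 1853 and 2164 at 3 h, against 14861 and 15174 with vehicle, and changed by -2.91 ± 0.09 (adjusted p of 8e-07). Its later averages were 4610, 7411 and 11349 at 12, 24 and 48 h. Myc read 1258 and 1327 at 3 h, against 7676 and 7956 with vehicle, a change of -2.60 ± 0.07. Cdkn1a, the CDK inhibitor p21, read 547 and 641 at 3 h, against 1760 and 2075 with vehicle, and 13094 on average at 48 h.

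Promoter windows of Ptgs2 and Mmp8 are shown because both genes were near background with vehicle and hold the letters of a C/EBP site. TTGCNNAA was searched on both strands from 250 bases before to 50 after each start in RefSeq (GRCm38.p6), and the first 270 bases of a window are printed with the match in capitals.
Ptgs2, chr1:150099781-150100050, plus strand: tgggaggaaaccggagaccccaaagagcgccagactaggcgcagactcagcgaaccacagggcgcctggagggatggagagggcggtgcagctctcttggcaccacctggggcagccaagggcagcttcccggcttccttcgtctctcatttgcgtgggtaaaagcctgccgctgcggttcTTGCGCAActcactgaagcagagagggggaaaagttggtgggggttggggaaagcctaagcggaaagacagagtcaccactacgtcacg
Mmp8, chr9:7558179-7558448, plus strand: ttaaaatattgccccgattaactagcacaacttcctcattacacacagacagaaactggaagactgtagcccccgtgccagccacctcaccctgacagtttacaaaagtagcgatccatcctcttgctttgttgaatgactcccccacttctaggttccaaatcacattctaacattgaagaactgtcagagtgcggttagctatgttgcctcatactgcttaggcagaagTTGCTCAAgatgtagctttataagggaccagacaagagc
The Ptgs2 match begins at position -69 and the Mmp8 match at position -19 from the start. Ptgs2, the inducible cyclooxygenase, read 397 and 358 at 3 h, against 16 and 30.9 with vehicle, and was at least 5.05-fold higher. Mmp8, neutrophil collagenase, read 507 and 419 at 3 h, against 16 and 16 with vehicle, and was at least 6.17-fold higher. Both went on to higher means at 48 h, 5340 for Ptgs2 and 13278 for Mmp8. The letters were present in 9.96% of the tested genes with a window and in 10.8% of all 32851 windows. They were found for 6 of 14 granule and antimicrobial genes (42.9%), 6 of 17 genes of the plasminogen and metalloproteinase list (35.3%), 22.2% of the reported targets and, likewise, 22.2% of the B lineage transcription factors. The letters were also found for 3 of 9 B lineage surface antigens (33.3%), 8 of 25 macrophage surface genes (32%) and 0 of 14 bZIP and Tribbles genes. Among the rises ranked 1 to 100 the share was 14.8%, and among the falls of the same ranks 15.7%.

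**Figure D2:**
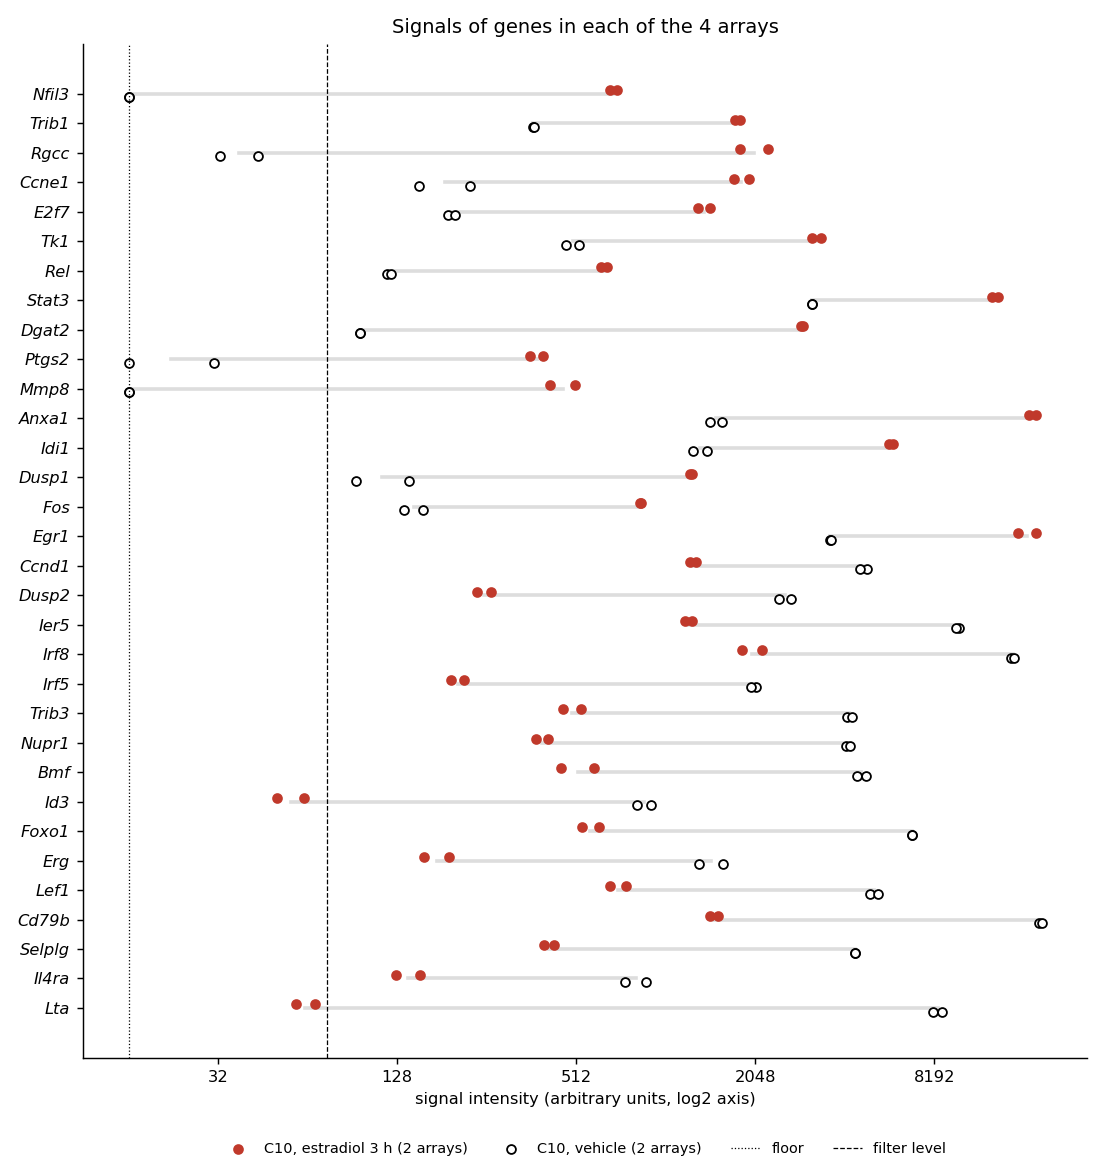
Signal of single genes in each of the 4 arrays on a log2 axis, with filled points for the 2 arrays at 3 h and open points for the 2 vehicle arrays; dotted and dashed lines mark the floor of 16 and the detection level of 74.6. Most of the genes were chosen for having no overlap between the groups, and the plot shows the size of their differences, such as 13455 and 12815 for Stat3 at 3 h, against 3177 and 3184 with vehicle.

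Immediate early genes encode transcription factors that respond to growth signals without new protein synthesis. Of 24 tested, 7 rose (29.2%) and 9 fell (37.5%), beside the 20.9% and 27.3% of all genes. The median was -0.08, near the -0.06 of all genes. Fos, a subunit of AP-1, read 847 and 838 at 3 h, against 135 and 157 with vehicle, a change of 2.53 ± 0.09. Nr4a1, an orphan nuclear receptor, read 1376 and 1270 at 3 h, against 232 and 255 with vehicle, and changed by 2.44 ± 0.10. Egr1, a zinc finger factor of the monocyte branch, read 15674 and 17975 at 3 h, against 3642 and 3678 with vehicle, which was 2.20 ± 0.09. The 3 h arrays were the high ones in these 3 genes. Ier5 read 1193 and 1254 at 3 h, against 9890 and 9670 with vehicle, a change of -3.00 ± 0.10. Jund, an AP-1 subunit linked to restrained growth, read 732 and 1067 at 3 h, against 6672 and 6566 with vehicle, which was -2.90 ± 0.17. Csrnp1, a nuclear protein induced by Axin, fell by 2.55 on the log2 scale, and Mafk, a small Maf factor, by 1.33. Thus members of 1 early class, and even of the AP-1 complex, lay on opposite sides of vehicle, as did members of other lists.

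ERK feedback genes switch off the kinase cascade that drives many early genes, and 4 of 18 rose while 9 fell. The shares, 22.2% and 50%, stood beside the 20.9% and 27.3% of all genes. The list's median of -0.24 turned positive with spike-in scaling. Dusp1, a nuclear phosphatase of MAP kinases, read 1251 and 1240 at 3 h, against 92.9 and 140 with vehicle, a change of 3.45 on the log2 scale. Dusp2 went the other way, with 238 and 265 at 3 h, against 2703 and 2462 with vehicle, a change of -3.36 ± 0.21. Dusp4 read 549 and 487 at 3 h, against 2118 and 2337 with vehicle (-2.10 ± 0.09), and Dusp7 and Dusp5 fell by 1.96 and 1.89. Dusp6, the ERK phosphatase of the cytoplasm, did not pass, with 9490 and 9137 at 3 h, against 10680 and 11615 with vehicle (-0.26), but passed under 4 other settings. The antiproliferative gene Btg2, which recruits the deadenylase to mRNAs, read 525 and 719 at 3 h, against 3081 and 3695 with vehicle, a change of -2.46 ± 0.17. Zfp36l2, which destabilises AU-rich mRNAs, read 2507 and 2633 at 3 h, against 8674 and 8429 with vehicle, and changed by -1.73 ± 0.09. Tob1, a relative of Btg2, read 813 and 837 at 3 h, against 534 and 509 with vehicle, a rise of 0.66 ± 0.09. In the whole list of mRNA decay and antiproliferative genes, 3 of 12 rose (25%) and 5 fell (41.7%).

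Of 21 B lineage transcription factors, 16 were lower at 3 h and 3 were higher, and the falls named here are the largest. With spike-in scaling 9 of the 21 fell. Foxo1, an activator of the Rag genes and of Il7r, read 535 and 610 at 3 h, against 6905 and 6898 with vehicle, a change of -3.60 ± 0.11, and it was -3.56 against HAFTL. Erg, an ETS factor of early B cells, read 192 and 158 at 3 h, against 1601 and 1321 with vehicle, a change of -3.06 ± 0.14. Spib and Bcl11a were the other large falls of the list. The vehicle arrays were the high ones in these genes. The 3 rises were Ets1, Mef2c and Myb. Ets1 read 8196 and 7692 at 3 h, against 3420 and 3088 with vehicle, a change of 1.29 ± 0.09. Myb, a factor of proliferating progenitors, read 14861 and 13669 at 3 h, against 10519 and 9987 with vehicle, which was 0.48 ± 0.08. Mef2c changed by 0.55 against vehicle and by 0.01 against HAFTL, and its call was lost when probe sets were averaged. Against HAFTL the list had 3 rises and 15 falls with a median of -0.97.

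Of 3 tested inhibitors of E proteins, the activators of B lineage genes, 2 fell and 1 did not pass. Id3, an inhibitor that takes E proteins off DNA, read 62.3 and 50.6 at 3 h, against 822 and 913 with vehicle, and was at least 11.6-fold lower (adjusted p of 1.1e-05). Cbfa2t3, an ETO-family corepressor, read 16 and 16 at 3 h, against 982 and 889 with vehicle, and was at least 12.5-fold lower. Hdac7, a histone deacetylase that represses myeloid genes in B cells, read 328 and 358 at 3 h, against 2532 and 2684 with vehicle, a change of -2.93 ± 0.14. The 3 h arrays were low in all 3 genes. Runx3 read 511 and 571 at 3 h, against 1548 and 1363 with vehicle (-1.43 ± 0.12). Tle1, a Groucho corepressor, read 803 and 877 at 3 h, against 525 and 514 with vehicle, a rise of 0.69. The list of ETO, TLE and Runx genes had 4 rises and 4 falls among 12 (33.3% each), beside the 20.9% and 27.3% of all genes.

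Most pre-B cell receptor genes fell, 21 of 24, or 6 of 24 with spike-in scaling, and Cd79b fell furthest among those named. Cd79b, the signalling chain paired with Cd79a, read 1448 and 1535 at 3 h, against 18461 and 18823 with vehicle, a change of -3.64 ± 0.08 with an adjusted p of 4.6e-07. It was -3.69 against HAFTL and averaged 2050, 6941 and 5860 at 12, 24 and 48 h. Cd22, an inhibitory coreceptor, read 1205 and 1306 at 3 h, against 7854 and 7492 with vehicle, which was -2.61 ± 0.15. Cd72, another inhibitory coreceptor, read 576 and 648 at 3 h, against 3466 and 3284 with vehicle, which was -2.46 ± 0.09. Exchange factors of the Vav family split: Vav2 read 185 and 229 at 3 h, against 1098 and 1089 with vehicle (-2.41 ± 0.12), and Vav1, the blood-cell member, read 2088 and 2152, against 1324 and 1391 (0.64 ± 0.07). Vav1 was the only rise in the list.

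Recombination genes had 1 rise and 6 falls among 12, and the median of -0.58 became 0.02 with spike-in scaling. The 2 recombinase subunits fell to background: Rag1 read 30.8 and 26.9 at 3 h, against 4927 and 4904 with vehicle, and was at least 65.8-fold lower. Rag2 was listed at the floor in both 3 h arrays, against 1330 and 1252 with vehicle, and was at least 17.3-fold lower. Hmgb2, a DNA-bending cofactor that also serves dividing cells, read 16005 and 15855 at 3 h, against 7452 and 7417 with vehicle, a rise of 1.10 ± 0.13. Polm, an end-joining polymerase, fell by 1.16.

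On the cell surface, Il7r, the receptor for the growth factor of early B cells, read 1772 and 1659 at 3 h, against 12927 and 11842 with vehicle, a change of -2.85 ± 0.11. Cd2, an adhesion molecule, read 471 and 513 at 3 h, against 3388 and 3614 with vehicle, which was -2.83 ± 0.10. Bst1, a cyclic ADP-ribose enzyme of stroma and pre-B cells, read 241 and 202 at 3 h, against 1645 and 1512 with vehicle, which was -2.84 ± 0.14. These falls were close in size. Enpep, the aminopeptidase known as BP-1, read 177 and 196 at 3 h, against 6050 and 5165 with vehicle, but HAFTL read 269 and 133, so its change was -4.91 against vehicle and -0.02 against HAFTL. Sdc1, the plasma cell syndecan, was higher, with 1902 and 1550 at 3 h, against 556 and 506 with vehicle (1.69 ± 0.12). In the Notch, Wnt and TGF-beta list, 3 of 26 rose and 9 fell. Wnt10a, a secreted ligand, read 147 and 179 at 3 h, against 1223 and 1205 with vehicle (-2.91 ± 0.49), and Lef1, the nuclear partner of beta-catenin, read 667 and 753, against 4992 and 5301 (-2.86 ± 0.09). Lfng, a sugar transferase that tunes Notch, fell by 1.73, and the corepressor Ski rose by 0.70.

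Cytokine receptors had 5 rises (15.6%) and 14 falls (43.8%) among 32, beside the 20.9% and 27.3% of all genes. Their median of -0.41 turned positive with spike-in scaling. Il4ra, shared by the interleukin-4 and interleukin-13 receptors, read 127 and 153 at 3 h, against 745 and 882 with vehicle, a change of -2.54 ± 0.19. Il21r read 35.6 and 66.8 at 3 h, against 354 and 496 with vehicle, and was at least 5.61-fold lower. Lifr read 81.1 and 58.7 at 3 h, against 2061 and 2010 with vehicle, and since 1 array lay under the detection level its fitted change of -4.88 is uncertain in size. Receptors of myeloid cytokines were among the rises. Csf2rb, the shared chain for GM-CSF and interleukin-3, read 6667 and 7315 at 3 h, against 4756 and 4563 with vehicle (0.58 ± 0.08). Il13ra1 read 97.6 and 66.7 at 3 h, against 16 and 16 with vehicle, at least 1.08-fold higher, but lost its call with another floor. Csf1r, the receptor for the macrophage growth factor, did not pass at 3 h, with 212 and 151, against 190 and 215 with vehicle, and averaged 680, 11698 and 16582 at the 3 later times. Without the first 3 h array it passed at -0.42, and without the second its change was 0.07.

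Downstream of the receptors, 6 of 24 JAK-STAT genes rose and 12 fell (median -0.27, positive with spike-in scaling). These shares, 25% and 50%, stood beside the 20.9% and 27.3% of all genes. Stat3, the transducer of interleukin-6 and G-CSF signals, read 13455 and 12815 at 3 h, against 3177 and 3184 with vehicle, a change of 2.05 ± 0.07 (adjusted p of 1e-06), and 1.74 against HAFTL. Pim1, a kinase that STAT5 induces, read 978 and 832 at 3 h, against 4882 and 3881 with vehicle, which was -2.27 ± 0.23. Pim2, its relative, read 284 and 265 at 3 h, against 1042 and 931 with vehicle (-1.84 ± 0.11), with HAFTL at 277 and 306. Pim1 and Pim2 thus moved apart from Stat3, while Pim3 rose as Stat3 did, with 1238 and 1160 at 3 h, against 767 and 673 with vehicle (0.74 ± 0.15). The feedback inhibitors Socs5 and Cish fell by 2.20 and 1.76.

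NF-kB and TNF pathway genes gave 5 rises (20.8%) and 7 falls (29.2%) among 24, near the 20.9% and 27.3% of all genes. Rel, the c-Rel subunit, read 622 and 649 at 3 h, against 118 and 122 with vehicle, a change of 2.40 ± 0.17. Nfkbiz, a nuclear cofactor that activates interleukin-6, read 2016 and 1916 at 3 h, against 557 and 544 with vehicle, which was 1.84 ± 0.13. Ltb, lymphotoxin beta, read 193 and 388 at 3 h, against 1593 and 1915 with vehicle, which was -2.67 ± 0.30, and Lta was at least 113-fold lower, at 58.4 and 67.7, against 8117 and 8714. The inhibitor Nfkbie read 116 and 184 at 3 h, against 693 and 593 with vehicle (-2.14 ± 0.23). A subunit and a cofactor were thus higher while the lymphotoxin ligands were lower. Tnf read 403 and 545 at 3 h, against 949 and 1183 with vehicle (-1.18), and its change against HAFTL, -0.27, did not pass.

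Genes of the cell cycle rose together. Ccne1, cyclin E1, which drives entry into S phase, read 1736 and 1945 at 3 h, against 152 and 225 with vehicle, a change of 3.31 ± 0.29. Cdc45 and Gins1, parts of the replicative helicase, changed by 2.48 ± 0.15 and 2.47 ± 0.13. Gins1 read 3074 and 3412 at 3 h, against 575 and 591 with vehicle. The only fall among the 42 replication genes was Prim2, a primase subunit, with 1986 and 2303 at 3 h, against 4542 and 4538 with vehicle (-1.09 ± 0.11). Among 16 E2F and pocket protein genes, 9 rose and 3 fell. The repressor E2F genes had the largest rises of this list: E2f7 read 1319 and 1444 at 3 h, against 190 and 200 with vehicle (2.82 ± 0.19), and E2f8 read 2658 and 2786, against 386 and 404 (2.78 ± 0.10). The activator E2f1 read 817 and 669 at 3 h, against 197 and 149 with vehicle (2.11 ± 0.17). E2f5 and Rbl2, which act in resting cells, fell by 0.98 and 0.95.

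Enzymes that make DNA precursors followed, with 14 rises and 2 falls among 23 nucleotide synthesis genes (median 0.51). Tk1, thymidine kinase, read 3420 and 3167 at 3 h, against 473 and 524 with vehicle, a change of 2.72 ± 0.11. Rrm1, the large subunit of ribonucleotide reductase, read 9043 and 7828 at 3 h, against 1452 and 1484 with vehicle (2.52 ± 0.12). Impdh1, of guanine synthesis, was lower, with 663 and 820 at 3 h, against 1497 and 1294 with vehicle (-0.92). In mitosis, the kinase Cdk1 read 10596 and 9683 at 3 h, against 1972 and 2001 with vehicle (2.35 ± 0.15), and the scaffold Anln, which acts in cytokinesis, read 5233 and 5014, against 1124 and 1119 (2.19 ± 0.11). Prc1, a spindle midzone protein, changed by 2.10 ± 0.09. Apart from Impdh1, the 3 h arrays were the high ones in the genes of this paragraph.

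Windows of Mcm5, a subunit of the replicative helicase, and Ccnb2, cyclin B2, are shown because the 2 lists with the most rises carry known cell cycle letters. Both genes were chosen for their windows after their values were seen. In the Mcm5 window the capitals mark 2 overlapping E2F matches, TTTNGCGC on either strand.
Mcm5, chr8:75109259-75109528, plus strand: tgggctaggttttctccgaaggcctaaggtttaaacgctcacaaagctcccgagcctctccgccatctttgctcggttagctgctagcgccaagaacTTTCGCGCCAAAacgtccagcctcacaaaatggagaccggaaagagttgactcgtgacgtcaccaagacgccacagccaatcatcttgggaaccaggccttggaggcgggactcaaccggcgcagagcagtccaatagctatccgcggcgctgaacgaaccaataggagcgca
In the Ccnb2 window the capitals mark the CHR letters TTTGAA, which cell cycle repressor complexes use, and CCAAT, the site of NF-Y.
Ccnb2, chr9:70421535-70421804, minus strand: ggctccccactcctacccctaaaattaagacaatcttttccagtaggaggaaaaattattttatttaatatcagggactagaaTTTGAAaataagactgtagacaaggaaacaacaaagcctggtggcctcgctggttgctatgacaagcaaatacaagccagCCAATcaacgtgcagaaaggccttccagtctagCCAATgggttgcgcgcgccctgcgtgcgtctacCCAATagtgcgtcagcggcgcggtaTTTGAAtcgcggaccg
Mcm5 read 13943 and 15047 at 3 h, against 3695 and 3859 with vehicle, and averaged 14596, 941 and 191 at 12, 24 and 48 h. Ccnb2 read 5331 and 5137 at 3 h, against 1834 and 1839 with vehicle, and averaged 4630, 1192 and 80.6 later. TTTNGCGC was found for 12 of 36 replication genes with a window (33.3%), against 2.87% of all tested genes and 1.38% of all windows. TTTGAA was found for 22 of 30 mitosis genes (73.3%), against 14.6% of tested genes and 17.9% of all windows. CCAAT was found for 73.3% of the mitosis genes as well, against 42.8% of tested genes and 37.4% of all windows.

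**Figure D3:**
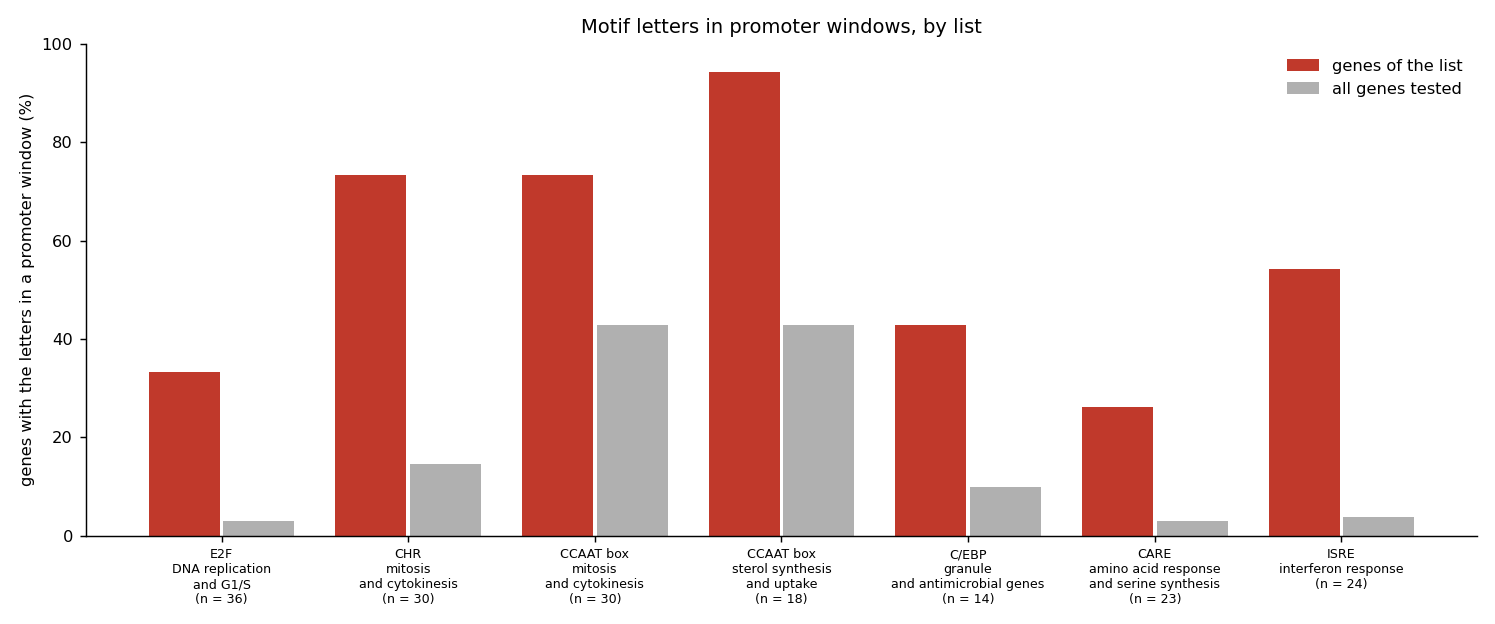
Percentage of genes with given letters in a promoter window of 300 bases, for the genes of a list (left bar of each pair) and for all tested genes (right bar); n is the number of list genes with a window. The list bars exceed the bars of all tested genes in each pair, with 73.3% against 14.6% for TTTGAA in mitosis genes. The pairs were chosen from all lists and letters, so the excess in each pair belongs to the choice. Pairs not shown also went the other way, such as 0% against 9.96% for the C/EBP letters in bZIP and Tribbles genes.

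Not all growth genes rose. CDK inhibitors and D cyclins had 5 rises (33.3%) and 7 falls (46.7%) among 15, beside the 20.9% and 27.3% of all genes. Their median of -0.26 turned positive with spike-in scaling. Ccnd2, a D cyclin that mitogens induce, read 196 and 195 at 3 h, against 831 and 770 with vehicle, a change of -2.03 ± 0.08. Ccnd1 read 1293 and 1234 at 3 h, against 4860 and 4599 with vehicle, which was -1.90 ± 0.07. Cdk4, their kinase partner, read 5436 and 5220 at 3 h, against 2817 and 2631 with vehicle, which was 0.97. D cyclins and cyclin E1 were thus on opposite sides of vehicle. Rgcc, a regulator of cell cycle kinases, read 1822 and 2259 at 3 h, against 43.6 and 32.6 with vehicle, at least 27.2-fold higher, and averaged 106 at 24 h. Cdkn2c, the inhibitor p18, read 2353 and 2367 at 3 h, against 622 and 753 with vehicle (1.79 ± 0.17). In the Myc and Max network, Mxd4, a Myc antagonist, read 298 and 351 at 3 h, against 2248 and 2096 with vehicle (-2.75 ± 0.13). Ribosome biogenesis genes, often activated by Myc, gave 6 rises (22.2%) and 10 falls (37%) among 27 (median -0.13, positive with spike-in scaling). Noc4l changed by 0.61 and Utp20 by 0.69.

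Sterol synthesis genes rose along the pathway. Idi1, isopentenyl diphosphate isomerase, read 5748 and 5929 at 3 h, against 1414 and 1266 with vehicle, a change of 2.13 on the log2 scale. Hmgcs1, which makes the precursor of mevalonate, read 10648 and 10530 at 3 h, against 3295 and 3326 with vehicle, which was 1.68 ± 0.08. Msmo1, a sterol demethylase, read 4268 and 4227 at 3 h, against 1362 and 1352 with vehicle, which was 1.65 ± 0.06. The 3 h arrays were the high ones throughout, and against HAFTL 14 genes of the list rose, with a smaller median, 0.61. The Hmgcs1 window is shown because sterol genes are classical targets of SREBP, the sterol-sensing factor. Its capitals mark an SRE match, TCACNCCAC, and CCAAT on the opposite strand.
Hmgcs1, chr13:119690101-119690370, plus strand: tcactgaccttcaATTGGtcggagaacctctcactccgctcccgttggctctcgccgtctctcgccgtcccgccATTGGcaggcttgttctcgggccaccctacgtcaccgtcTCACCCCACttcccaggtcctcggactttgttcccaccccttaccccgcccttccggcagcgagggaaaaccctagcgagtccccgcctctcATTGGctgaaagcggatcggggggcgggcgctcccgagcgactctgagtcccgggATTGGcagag
CCAAT was present for 17 of 18 sterol genes with a window (94.4%), against 42.8% of tested genes. The SRE letters were present for 1 of 18 (5.56%), against 1.42% of tested genes. That gene is Hmgcs1 itself, so the printed match is the only one in the list.

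Fatty acid genes were mixed, with 7 rises (43.8%) and 4 falls (25%) among 16, beside the 20.9% and 27.3% of all genes. The median was 0.28. Fads2, a desaturase, read 1080 and 1029 at 3 h, against 427 and 368 with vehicle, a change of 1.41 ± 0.11. Fasn, fatty acid synthase, read 3984 and 4299 at 3 h, against 2384 and 1959 with vehicle, which was 0.94 ± 0.12. Elovl6, an elongase, read 2101 and 2079 at 3 h, against 3925 and 3577 with vehicle, which was -0.84. In the triglyceride and lipid droplet list, 8 of 22 rose (36.4%) and 7 fell (31.8%). Dgat2, which completes triglycerides, read 2967 and 2914 at 3 h, against 96.3 and 96.3 with vehicle, a change of 4.93. Fabp5, a fatty acid carrier, read 9390 and 9415 at 3 h, against 2395 and 2337 with vehicle (1.99 ± 0.08), and Abhd5, the lipase activator, read 504 and 495, against 154 and 187 (1.56 ± 0.27). Earlier steps of the same pathway were lower: Gpam changed by -1.38 ± 0.14 and Lpin1 by -1.28. Cd36, a fatty acid transporter, read 625 and 598 at 3 h, against 283 and 265 with vehicle, and averaged 142 at 12 h and 1229 at 48 h. Of 14 prostaglandin and leukotriene genes, 7 rose and 2 fell. Besides Ptgs2, Hpgd, which breaks prostaglandins down, read 1152 and 1091 at 3 h, against 239 and 194 with vehicle (2.38 ± 0.12). The receptor Ptger4 read 390 and 444 at 3 h, against 121 and 153 with vehicle (1.61 ± 0.23), and Alox5ap, which serves leukotriene synthesis, read 615 and 767, against 1864 and 1858 (-1.44 ± 0.10).

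Genes of the amino acid response, which ATF4 drives when amino acids run short, gave 2 rises and 19 falls among 28, a share of falls far above the 27.3% of all genes. The median was -0.67, and it became 0.19 with spike-in scaling. Nupr1, a small stress-induced chromatin protein, read 412 and 375 at 3 h, against 4135 and 4254 with vehicle, a change of -3.42 ± 0.09 (adjusted p of 6.6e-07), and -1.75 against HAFTL. Its window is shown with the CARE letters TGATGNAA, the site of C/EBP and ATF dimers, in capitals as they read on the opposite strand.
Nupr1, chr7:126625451-126625720, minus strand: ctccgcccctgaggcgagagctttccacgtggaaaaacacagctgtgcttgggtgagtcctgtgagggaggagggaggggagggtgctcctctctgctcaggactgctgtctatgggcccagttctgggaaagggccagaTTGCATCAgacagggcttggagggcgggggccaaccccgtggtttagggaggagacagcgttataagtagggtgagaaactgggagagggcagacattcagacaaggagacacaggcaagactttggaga
The match begins at position -110. These letters were present for 6 of 23 genes of the list with a window (26.1%), against 2.88% of tested genes and 3.97% of all windows. Trib3, Ddit3 and Atf5, described above, belong to this list too. Atf4 itself did not pass, with 10109 and 10903 at 3 h, against 11015 and 11739 with vehicle, and its protein was not measured. Against HAFTL the list had 5 rises and 14 falls, with a median of -0.27. Oat, ornithine aminotransferase, was among the rises, with 2894 and 2950 at 3 h, against 1823 and 2054 with vehicle (0.59 ± 0.09).

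The unfolded protein response and heat shock list had 14 rises and 8 falls among 31 (median 0.37). Edem1, which extracts misfolded glycoproteins, read 3882 and 3499 at 3 h, against 1282 and 1096 with vehicle, a change of 1.64 ± 0.09. Creld2, an endoplasmic reticulum protein, read 1813 and 1959 at 3 h, against 699 and 634 with vehicle. The chaperone calreticulin, Calr, changed by 1.34 ± 0.09 and read 12970 and 13856 at 3 h, against 5495 and 5070 with vehicle. Sel1l, which holds the ubiquitin ligase of the endoplasmic reticulum, read 882 and 1029 at 3 h, against 3781 and 3869 with vehicle, which was -2.01 ± 0.09. Its ligase partner Syvn1 read 1135 and 1236 at 3 h, against 4446 and 3973 with vehicle, which was -1.83 ± 0.09. Genes that act in degradation thus lay on both sides of vehicle.

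Among 22 Bcl2 family members and relatives, 3 rose (13.6%) and 8 fell (36.4%), near the 20.9% and 27.3% of all genes, with a median of -0.24. Among 20 p53 targets, 3 rose and 10 fell (50%), with a median of -0.51, and both medians turned positive with spike-in scaling. Bmf, a BH3-only killer protein, read 589 and 457 at 3 h, against 4831 and 4489 with vehicle, a change of -3.17 ± 0.16. Bbc3, the killer known as Puma, read 169 and 197 at 3 h, against 770 and 846 with vehicle, which was -2.15 ± 0.16. The survival gene Bcl2l1 fell as well, with 1054 and 815 at 3 h, against 3397 and 3018 with vehicle (-1.79 ± 0.12). Both killers and a protector were thus lower. Zmat3 read 261 and 248 at 3 h, against 1086 and 1124 with vehicle (-2.12), and Trp53inp1 read 1298 and 1461, against 5192 and 4813 (-1.86). Gadd45a, a growth arrest gene, read 807 and 842 at 3 h, against 255 and 302 with vehicle, a rise of 1.57 ± 0.12, and Bok, a Bcl2 relative, rose by 1.56 ± 0.29 against vehicle and stood 0.51 above HAFTL.

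Myeloid transcription factors had 8 rises and 6 falls among 26, with a median of 0.06, and against HAFTL 12 and 6, with a median of 0.42. The shares against vehicle were 30.8% and 23.1%, beside the 20.9% and 27.3% of all genes. Zeb2, a repressor needed for monocytes, read 3342 and 3654 at 3 h, against 1316 and 1022 with vehicle, a change of 1.59 ± 0.21. Mitf, of osteoclasts and mast cells, read 344 and 473 at 3 h, against 166 and 114 with vehicle, which was 1.56 ± 0.22. Irf5, which drives inflammatory cytokines in macrophages, was lower at first, with 216 and 195 at 3 h, against 2058 and 1988 with vehicle, a change of -3.30 ± 0.09, and averaged 278, 2420 and 3008 at 12, 24 and 48 h. Gfi1b, of the red cell and platelet branch, fell by 2.06. Interferon regulatory factors Irf5 and Irf8 were therefore both far under vehicle while Gfi1, Zeb2 and Spi1 were above it.

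Granule and antimicrobial genes had 8 rises and 3 falls among 17, with 6 further genes under the detection level, and their median was 1.12, 0.86 with bounds in place of fitted values, or 0.68 over all 23 without the filter. Anxa1, a protein that limits inflammation, read 18039 and 17076 at 3 h, against 1442 and 1582 with vehicle, a change of 3.54 ± 0.10 (adjusted p of 6.6e-07). Lcn2, which withholds iron from bacteria, read 96.5 and 190 at 3 h, against 16 and 33 with vehicle, and was at least 1.81-fold higher. Macrophage surface genes had 7 rises and 11 falls among 35 (median -0.16). Tlr2, a receptor for bacterial lipoproteins, read 1341 and 1187 at 3 h, against 310 and 288 with vehicle, which was 2.08 ± 0.18, and it averaged 15715 at 24 h. Irak3, which dampens Toll-like receptor signals, read 2536 and 2339 at 3 h, against 390 and 423 with vehicle, which was 2.58 ± 0.11. Tlr4, the endotoxin receptor, read 432 and 375 at 3 h, against 1253 and 1108 with vehicle, which was -1.55. Tyrobp, an adaptor of myeloid receptors, read 68.6 and 55.6 at 3 h, against 215 and 215 with vehicle, and was at least 2.88-fold lower. The shares of rises and falls in this list, 20% and 31.4%, were near the 20.9% and 27.3% of all genes.

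Cytokine and chemokine genes gave 6 rises and 6 falls among 23 (26.1% each), near the 20.9% and 27.3% of all genes. Ccl9, a chemokine of myeloid cells, read 1628 and 1657 at 3 h, against 305 and 285 with vehicle, a change of 2.48 ± 0.12, and 4.91 against HAFTL. Ccl3 read 1590 and 1621 at 3 h, against 395 and 458 with vehicle, which was 1.92 ± 0.14. Il1b read 386 and 427 at 3 h, against 63.8 and 51.9 with vehicle, and was at least 5.44-fold higher. Il15 was at least 2.92-fold higher, while Il18 read 385 and 310 at 3 h, against 765 and 720 with vehicle (-1.10). Of 21 chemoattractant and metabolite receptor genes, 3 rose (14.3%) and 7 fell (33.3%), beside those same shares of all genes, 20.9% and 27.3%. Gpr84, a receptor for medium-chain fatty acids, read 3367 and 3231 at 3 h, against 142 and 97.1 with vehicle, a change of 4.81. Gpr171 read 281 and 220 at 3 h, against 1250 and 1521 with vehicle (-2.47 ± 0.20), and the ATP receptor P2rx7 read 150 and 111, against 627 and 523 (-2.15).

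The plasminogen, serpin and metalloproteinase list had 8 rises and 4 falls among 21. Serpinb2, an inhibitor of plasminogen activators, read 524 and 478 at 3 h, against 33.9 and 16 with vehicle, and was at least 6.7-fold higher. Mmp10, stromelysin 2, read 486 and 522 at 3 h, against 62.8 and 16 with vehicle, was at least 6.75-fold higher, and averaged 149 at 12 h and 652 at 24 h. Mmp13, a collagenase, stood only at 99.4 and 77.8 at 3 h, against 26.6 and 29.6 with vehicle, at least 1.18-fold higher, but averaged 907, 11326 and 27438 at 12, 24 and 48 h. Mmp11 went down, with 68.3 and 38.5 at 3 h, against 340 and 281 with vehicle, at least 4.14-fold lower. AP-1 letters, TGANTCA, were present for 35.3% of this list's genes and 35.3% of the cytokine genes with a window, against 6.3% of tested genes. They were present in 7.81% of all windows. The interferon response and MHC class II lists, where most calls were falls, each had 25%.

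Adhesion and cell shape genes moved both ways. Selplg, the selectin ligand of leukocytes, read 431 and 400 at 3 h, against 4424 and 4446 with vehicle, a change of -3.42 ± 0.07 with an adjusted p of 4.6e-07. Icam1 read 279 and 302 at 3 h, against 1521 and 1350 with vehicle, which was -2.30 ± 0.09. Cd44, the hyaluronan receptor, read 6092 and 4924 at 3 h, against 2892 and 2827 with vehicle, which was 0.94 ± 0.12. Structural genes of the actin skeleton were among the rises: Vcl, vinculin, read 4883 and 5097 at 3 h, against 1617 and 1642 with vehicle (1.61 ± 0.08), and Actg1, cytoplasmic gamma actin, read 30133 and 30410, against 16670 and 17204 (0.84 ± 0.08). Gem, a Ras-like inhibitor of calcium channels, read 54.2 and 53.8 at 3 h, against 1302 and 1414 with vehicle, and was at least 18.2-fold lower. In the annexin, S100 and membrane list, 3 rose (15.8%) and 10 fell (52.6%) among 19, beside the 20.9% and 27.3% of all genes. Anxa3 read 448 and 432 at 3 h, against 44 and 33 with vehicle, at least 5.89-fold higher, and the giant scaffold Ahnak read 154 and 197, against 823 and 850 (-2.26).

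Of 12 MHC class II genes 7 fell and the other 5 did not pass, with a median of -0.65 (-0.33 with bounds), and with spike-in scaling 1 fell. Against HAFTL, 4 of the 12 were higher and 5 lower. H2-Ob, which restrains peptide loading in B cells, read 677 and 597 at 3 h, against 3088 and 2942 with vehicle, a change of -2.25 ± 0.12. Cd74, the invariant chain, read 3310 and 3374 at 3 h, against 11051 and 12142 with vehicle, which was -1.79 ± 0.08. Rfx5, a promoter factor of these genes, read 421 and 454 at 3 h, against 1062 and 1206 with vehicle, which was -1.37 ± 0.09. The interferon response had 3 rises and 15 falls among 27, with a median of -0.71, and with spike-in scaling 1 of them fell. Oasl1 read 101 and 115 at 3 h, against 390 and 300 with vehicle (-1.66), and averaged 3386 at 24 h and 7826 at 48 h. Ifit2 ran against the list, with 890 and 880 at 3 h, against 586 and 613 with vehicle (0.56 ± 0.07). The interferon response letters, GAAA and GAAA with any 2 bases between them, were present for 13 of 24 genes with a window (54.2%), against 3.74% of tested genes.

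The lysosome and V-ATPase list gave 6 rises and 8 falls among 23 (median -0.20, positive with spike-in scaling). These shares, 26.1% and 34.8%, stood beside the 20.9% and 27.3% of all genes. Lgmn, the protease legumain, read 1049 and 1013 at 3 h, against 3663 and 4169 with vehicle, a change of -1.92 ± 0.15. Psap, the precursor of saposins, read 2349 and 2034 at 3 h, against 6741 and 6436 with vehicle, which was -1.59 ± 0.10, and it averaged 23377 at 24 h. Gla, alpha-galactosidase A, read 998 and 1007 at 3 h, against 292 and 330 with vehicle, which was 1.69 ± 0.12. Ctsc, which activates granule proteases, rose by 0.63 ± 0.06.

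Rises outnumbered falls in the glycolysis, respiration and redox lists. The amino acid list above went the other way, with 2 rises and 19 falls among 28. Of 24 glycolysis and pentose phosphate genes 12 rose (50%) and 4 fell (16.7%), with a median of 0.26. Of 30 respiration genes 12 rose (40%) and 2 fell (6.67%), with a median of 0.16. Over all genes the shares were 20.9% and 27.3%. Pkm, pyruvate kinase, read 7722 and 6731 at 3 h, against 2786 and 2923 with vehicle, a change of 1.34 on the log2 scale. Pgam1 and Tpi1 changed by 1.19 and 1.02, and Eno2, the neuronal enolase, was at least 3.08-fold lower. Pdk1, a kinase that inhibits pyruvate dehydrogenase, read 729 and 723 at 3 h, against 1521 and 1432 with vehicle (-1.02 ± 0.11). Respiratory genes changed by less, with Ndufb8 of complex I at 0.84 and cytochrome c, Cycs, at 0.63. In the iron, haem and redox list 11 of 23 rose (47.8%) and 6 fell (26.1%). The thioredoxin pair Txn1 and Txnrd1 changed by 1.32 and 1.31, and Txn1 read 24190 and 24688 at 3 h, against 9963 and 9594 with vehicle. Gclc, of glutathione synthesis, read 6291 and 5829 at 3 h, against 2477 and 2220 with vehicle (1.37). Tfrc, the iron uptake receptor, read 3221 and 3120 at 3 h, against 9101 and 8284 with vehicle (-1.45).

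The clock list had 2 rises and 9 falls among 18 (50% falls, beside 27.3% of all genes), and its median of -0.39 turned positive with spike-in scaling. Nr1d1, the haem-binding repressor of the clock, read 24.3 and 68.8 at 3 h, against 542 and 552 with vehicle, and was at least 7.33-fold lower. Cry2, a clock repressor of another family, read 559 and 499 at 3 h, against 224 and 238 with vehicle, which was 1.20. Of 19 nuclear receptor genes 2 rose and 7 fell (36.8%), near the share of all genes, and with spike-in scaling 1 fell and the median was 0.29. Nr3c1, the glucocorticoid receptor, read 2370 and 2557 at 3 h, against 1420 and 1100 with vehicle (0.98), and Hsd11b1, which regenerates active glucocorticoid, read 2256 and 2032, against 153 and 124 (3.96). Tsc22d3, a glucocorticoid-induced gene, read 1196 and 1224 at 3 h, against 4454 and 5513 with vehicle (-2.03). The glucocorticoid and oestrogen response list as a whole had 3 rises (18.8%) and 5 falls (31.2%) among 16, with a median of 0.03. These shares were near the 20.9% and 27.3% of all genes.

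Calcium and cyclic AMP genes had 5 rises (14.7%) and 13 falls (38.2%) among 34, beside the 20.9% and 27.3% of all genes. Their median was -0.20, positive with spike-in scaling. Nfatc1, the calcium-driven factor of antigen receptors, read 279 and 254 at 3 h, against 1643 and 1647 with vehicle, a change of -2.63. Itpr2, a calcium release channel, read 291 and 304 at 3 h, against 1996 and 1850 with vehicle, which was -2.69, and -1.03 against HAFTL. Pde7a, a phosphodiesterase, read 4888 and 4824 at 3 h, against 1873 and 1868 with vehicle, which was 1.38. Rgs18, a brake on G protein signals in platelets and myeloid cells, rose by 1.51 ± 0.09.

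Chromatin genes had 15 rises (33.3%) and 12 falls (26.7%) among 45. Dnmt1, the maintenance DNA methyltransferase, read 5664 and 5717 at 3 h, against 1649 and 1910 with vehicle, a change of 1.68. Its partner Uhrf1 read 2172 and 2714 at 3 h, against 1191 and 936 with vehicle, which was 1.20. Ezh2, the polycomb methyltransferase of dividing cells, rose by 0.87, and Ezh1, the form found in resting cells, read 486 and 480 at 3 h, against 1045 and 1034 with vehicle, a change of -1.11. Over the other settings against vehicle, the Ezh1 change ran from -1.23 to -0.06. Its call was lost with averaged probe sets and with spike-in scaling. Kdm6b, which removes the mark that Ezh2 sets, read 624 and 711 at 3 h, against 1500 and 1524 with vehicle (-1.18). Mbd4, a glycosylase that repairs mismatches at methylated sites, fell by 1.55.

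Beyond the lists and the 10 largest changes, the ranks from 11 to 25 held further genes. Among the rises, Napepld, which makes acylethanolamides, read 666 and 706 at 3 h, against 48.6 and 55.8 with vehicle, and was at least 9.19-fold higher. Dhrs3, a retinal reductase, read 1334 and 1512 at 3 h, against 133 and 124 with vehicle, a change of 3.47 ± 0.19. Gja1, connexin 43, read 2130 and 2155 at 3 h, against 269 and 185 with vehicle, which was 3.26 ± 0.20. Gas7 was at least 6.37-fold higher and the mitochondrial arginase Arg2 at least 2.13-fold higher. Among the falls, Haao, of tryptophan breakdown, read 67.4 and 57.4 at 3 h, against 1246 and 1330 with vehicle, and was at least 17.3-fold lower. Tbc1d10c, a Rab GTPase activator that also restrains Ras, read 519 and 459 at 3 h, against 7584 and 7444 with vehicle, a change of -3.95 ± 0.11. Asb2, a ubiquitin ligase subunit, read 194 and 188 at 3 h, against 2697 and 3023 with vehicle, which was -3.90 ± 0.20. Zfp318, a nuclear zinc finger protein needed for surface IgD, read 309 and 326 at 3 h, against 4387 and 4369 with vehicle, which was -3.78 ± 0.17. Rassf4 was at least 7.7-fold lower, and Pcbp4, an RNA-binding protein, at least 9.63-fold lower.

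Some changes at 3 h had turned back at 12 h, and a return to the vehicle level was not required for the counts that follow. By limma, 730 genes rose at 3 h and were lower at 12 h than at 3 h, and 972 fell at 3 h and were higher at 12 h, where 16.6% of genes were higher and 16.6% lower at 12 h than at 3 h. Both comparisons share the 3 h arrays, so a chance extreme at 3 h enters both. Gja1 averaged 708 at 12 h and 172 at 24 h. Cirbp, a cold-inducible RNA-binding protein, read 2094 and 1976 at 3 h, against 216 and 291 with vehicle, and averaged 581, 303 and 362 later. Il5ra, a receptor of eosinophils and B-1 cells, read 120 and 149 at 3 h, against 24.1 and 29.3 with vehicle, and was under the detection level from 12 h on. Myh7b, a myosin heavy chain, likewise read 360 and 395 at 3 h and averaged 53.3 at 12 h. Troughs ran the other way. Cyth4, an ARF exchange factor of blood cells, read 84.1 and 113 at 3 h, against 869 and 1014 with vehicle, and averaged 923, 2149 and 2639 at 12, 24 and 48 h. Fbp1, of gluconeogenesis, read 213 and 230 at 3 h, against 1835 and 1610 with vehicle, and averaged 3639 at 24 h. Cbfa2t3, at the floor at 3 h, averaged 106 and 496 at 12 and 24 h.

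**Figure D4:**
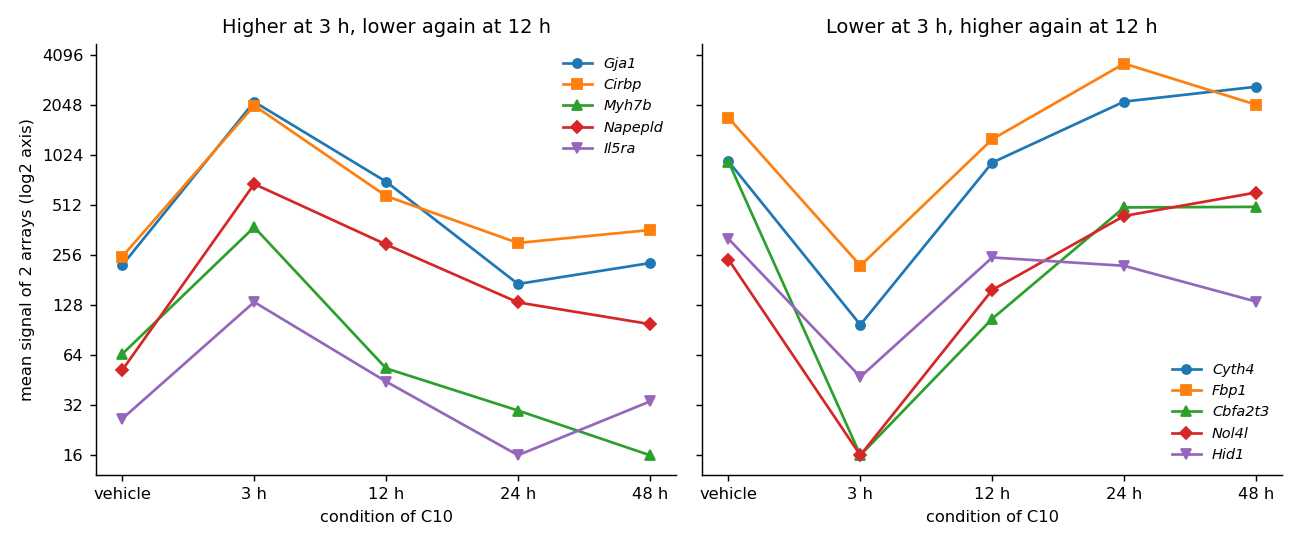
Mean signal of 2 arrays on a log2 axis in C10 with vehicle and after 3, 12, 24 and 48 h of beta estradiol, for 5 genes that were higher at 3 h than with vehicle and at 12 h (left) and 5 that were lower at 3 h than with both (right). Gja1 averaged 708 at 12 h after its peak, and Cyth4 averaged 923 at 12 h after its trough.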

How the data were processed

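The values are linear signal intensities of 45101 probe sets on 12 arrays, as the authors deposited them. Per the labels' protocols, RNA was taken with Trizol and biotin-labelled by the Affymetrix protocol, while the software that made the intensities was not given in the sources used here. All arrays have the same trimmed mean, so they had been scaled before deposit. Log2 intensities were quantile normalised, 64 control probe sets were dropped and values were floored at 16. Genes came from the platform annotation, where 34945 probe sets list 1 gene, 932 list several and 9160 list none; only the first kind was used, 34741 of them with a symbol found in RefSeq. The probe set with the highest mean stood for each of 18193 genes, and 11696 genes passed the filter. Array signals give no read depth, and the number of arrays limits the precision.

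In limma 3.58.1 (R 4.3.3), 1 mean was fitted per group over all 12 arrays, with 6 residual degrees of freedom, followed by eBayes and Benjamini-Hochberg adjustment over all genes; the fit was tested on simulated data. The median standard error was 0.148. Replicate arrays correlated at 0.977 (3 h) and 0.980 (vehicle) across genes, which are not independent. The 56 lists, 1215 genes on the array of which 132 were under the filter, and the genes named were chosen with earlier results of these data known. Named are ranks 11 to 25 of the rises and falls, up to 4 rises and 4 falls per list without overlap between groups, leading peaks and troughs, and a few members that did not pass. Igll1, Dusp6, Mcm5 and Ccnb2 were added after their values were seen. The counts of some lists are not reported here. Promoter letters were searched in RefSeq windows (GRCm38.p6), which 9476 tested genes matched. Alternatives covered scaling, floor, filter, probe sets, prior, block, HAFTL and each array left out.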

Additional observations from a re-analysis of the deposited data

Results flagged for a closer look

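Control probe sets for 18S ribosomal RNA, which take no part in the comparisons, were bright in the second array at 3 h. Its signal was 9866 at the 5' end, 2091 in the middle and 5929 at the 3' end, against 353.4, 299.8 and 604.8 in the first array at 3 h. The vehicle arrays read 1140 and 199.4 at the 5' end, 252.7 and 206.4 in the middle, and 562.1 and 420 at the 3' end. They are set out here because the signal lies above that of the vehicle arrays in data outside the main measurement. Without that array 1948 genes rose and 2814 fell, against 2450 and 3196 with it. The 5' to 3' ratio of Actb, a measure of RNA integrity, was 0.784 and 0.746 at 3 h, against 0.582 and 0.638 with vehicle, and that of Gapdh 1.32 and 1.18, against 1.19 and 1.15. Their part in the results was not tested.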

How the results depend on the processing

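Under changes of scaling, floor, filter, probe set rule, prior, block or HAFTL as the comparison, the counts of 2450 rises and 3196 falls stayed within 1.5 times with 3 exceptions. With spike-in scaling 417 genes fell (2127 rose); with each probe set tested alone 4695 probe sets rose and 4864 fell, more because more were tested; and with a minimum change of 1 (log2) 827 rose and 1334 fell. With each of the 4 arrays left out in turn, rises ran from 1948 to 2063 and falls from 2554 to 2814, and every named gene that had passed kept its direction and call. Of those that had not, Csf1r passed without 3 h replicate 1 (-0.42) and was 0.07 without replicate 2, and Esr1 was -0.24 and 0.41. The numbers of the replicates were also used as a block: with this replicate block 2377 genes rose and 3114 fell. The samples share only a number, since deviations of same-numbered arrays correlated between -0.0337 and 0.0415, and 0.0152 for 3 h with vehicle.

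Of 218 genes named, 151 kept direction and call under all alternatives. On the spike-in scale 36 lost their call and kept their direction: Alox5ap, Bcl2l1, Ccnd1, Cd74, Cdkn1a, Cish, E2f5, Elovl6, Ezh1, Gpam, Ifit2, Igll1, Il18, Impdh1, Kdm6b, Lfng, Lgmn, Lpin1, Mafk, Mbd4, Oasl1, Pdk1, Polm, Prim2, Psap, Rbl2, Rfx5, Runx3, Syvn1, Tfrc, Tlr4, Tnf, Trp53inp1, Tsc22d3, Tyrobp and Zfp36l2. Ifit2 was a rise and the others were falls. Il13ra1 lost its call with a floor of 1, a floor of 64 or a pseudocount of 16. Dusp6 passed with either other filter, the block or an intensity trend. Averaging probe sets ended the calls of Mef2c, Ezh1 and Igll1, and the minimum change of 1 ended 26. Against HAFTL, Cd5 was reversed, at 0.59. Without the filter, list medians that were small also moved, such as 0.02 for immediate early genes and 0.16 for fatty acid synthesis. Values near the floor limit what can be measured: 574 genes were under the detection level in all 4 arrays, and 70 of them were called.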
